A study of Mus musculus with 12 samples.

Results

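The cardiac lineage transcription factors Gata4, Gata6, Nkx2-5, Tbx5, Tbx20, Mef2a, Mef2c, Mef2d, Hand2 and Srf were examined in left ventricular tissue of mice. They are 10 of the 26921 genes with a deposited count, and were found by their symbols in the GENCODE M21 annotation of GRCm38. RNA sequencing compared 16-week-old WT mice (n = 6) with littermate cmGch1 KO mice (n = 6), to ask what loss of Gch1 from cardiomyocytes does to cardiac gene expression. Gch1 encodes GTP cyclohydrolase I, the enzyme that starts synthesis of tetrahydrobiopterin, a cofactor of the nitric oxide synthases. WT mice were Gch1 flox/flox without Cre, and cmGch1 KO mice were Gch1 flox/flox with 1 copy of Cre recombinase driven by α-MHC, a promoter of cardiomyocytes. Both groups therefore carried the floxed alleles, and Cre was present in the cmGch1 KO group alone, so that effects of Cre itself and of the deletion cannot be told apart here. Other cell types of the heart kept their Gch1.

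These factors bind DNA and specify and maintain the cardiac muscle cell. GATA factors recognise GATA sites, Nkx2-5 is a homeodomain protein, Tbx5 and Tbx20 are T-box proteins, MEF2 proteins and Srf share the MADS DNA-binding domain, and Hand2 is a basic helix-loop-helix protein that binds E-boxes. They act together on promoters and enhancers of sarcomere, ion channel and natriuretic peptide genes, and several of them drive the reactivation of fetal genes in the stressed ventricle. Much of their activity is set after transcription, by partner proteins, phosphorylation and nuclear transport, none of which is measured by RNA sequencing.

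To show the letters that these factors read, the 250 bases before the gene start were taken from RefSeq (GRCm38.p6). An entry was found for 7 of the 10 factors, and Gata4, Gata6 and Tbx5 had none. It was also found for 5 of 6 genes of the factors' network that differed between genotypes, described further on, all but Adra1a. Matches to 6 motifs were sought on both strands. These were the CArG box of Srf (present in 1.47% of 32851 windows of the same length), the MEF2 site (2.92%), the Nkx2-5 site TNAAGTG (10.1%), the T-box site AGGTGTGA (1.12%), the Hand2 E-box CATCTG (14.4%) and GATA sites (26.5%). A GATA site was spelled AGATAA, with a last G as AGATAG, with a first T as TGATAA, or with both as TGATAG. The 3 windows with at least 2 matches are printed 5′ to 3′ on the strand of the gene, with matches in capitals. They belong to Hand2 (chr8:57320733-57320982, plus strand), Srf (chr17:46556163-46556412, minus strand) and Nppa (chr4:148000472-148000721, plus strand), a target of several of the factors and the called gene with the largest fold change among those followed here.
Hand2: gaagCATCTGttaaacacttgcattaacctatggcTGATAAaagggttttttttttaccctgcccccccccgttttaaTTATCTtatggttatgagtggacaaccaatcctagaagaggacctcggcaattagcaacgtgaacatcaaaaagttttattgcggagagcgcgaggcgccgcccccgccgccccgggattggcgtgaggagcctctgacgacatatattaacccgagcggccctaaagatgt
Srf: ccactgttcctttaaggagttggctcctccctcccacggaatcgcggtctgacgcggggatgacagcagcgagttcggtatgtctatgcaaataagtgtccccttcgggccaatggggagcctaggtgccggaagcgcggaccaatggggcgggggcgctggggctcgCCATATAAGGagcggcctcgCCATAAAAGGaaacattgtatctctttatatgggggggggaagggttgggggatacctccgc
Nppa: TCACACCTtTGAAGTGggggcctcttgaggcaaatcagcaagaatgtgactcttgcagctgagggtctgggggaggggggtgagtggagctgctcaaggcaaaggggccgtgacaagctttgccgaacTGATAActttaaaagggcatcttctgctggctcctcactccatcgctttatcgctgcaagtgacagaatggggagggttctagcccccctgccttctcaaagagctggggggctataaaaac
The Srf window held 2 CArG boxes, CCATATAAGG from 82 to 73 bases before the start and CCATAAAAGG from 62 to 53. The Hand2 window held an E-box from 246 to 241 and GATA sites from 215 to 210 and, read on the other strand, from 172 to 167. The Nppa window held a T-box match from 250 to 243, an Nkx2-5 match from 241 to 235 and a GATA site from 122 to 117. Matches did not overlap, and each is a match of letters, not a measured binding site. Ankrd1 had 1 GATA match, from 47 to 42 bases before the start, and 1 of the 3 Mef2c windows had 1 E-box match, from 245 to 240. The windows of Nkx2-5, Tbx20, Mef2a, Mef2d, Acta2, Hdac4 and Kcnd2 held none of these letters.

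Libraries held 22356463 to 37917806 counts in WT and 19921398 to 35480715 in cmGch1 KO. Gch1 (chr14:47153895-47189413) had 9.32 to 12.2 cpm in WT and 3.94 to 6.35 in cmGch1 KO, without overlap, where cpm stands for counts relative to library size, scaled by edgeR's TMM factors. Its log2 fold change of cmGch1 KO over WT was -0.96 ± 0.11 (SE), with an FDR of 6.88e-04 (edgeR quasi-likelihood test, Benjamini-Hochberg adjusted over all genes tested). Replicates 2 and 3 of cmGch1 KO stood apart from the other 10 libraries. They had 87.1 and 99.6 cpm of Xist and 0 counts of 4 Y-linked genes, against at most 0.235 cpm of Xist and 168 to 193 cpm of the Y-linked genes together elsewhere. They also had 14.9% and 16.1% of their counts in mitochondrial genes, against 18.3% to 22.9% elsewhere. High Xist without Y-linked counts is the pattern of female mice, and the other 10 libraries had the male pattern. The labels give no sex. No WT library had the female pattern, so sex read from expression was not balanced between genotypes. Results that rest on these replicates are given with and without them, apart from sums of cell type markers. Cardiac muscle and atrial tissue were described by markers, which do not by themselves establish left ventricular identity. Summed cardiomyocyte markers, all 7 of them detected, ranged from 50848 to 60019 cpm. The sum of 4 atrial markers was uneven between libraries, from 7.66 cpm in WT replicate 6 to 285 cpm in WT replicate 4.

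All 10 factors were expressed above the minimum for testing, with 627 to 7344 counts per library, and none differed between genotypes at an FDR under 0.05 or at an unadjusted p under 0.05. Over all 11225 genes tested, 1.12% passed the FDR threshold and 11.5% had an unadjusted p under 0.05. Of the factors, 6 had a log2 fold change above 0 and 4 below, against 46.7% of all genes above 0. Their median log2 fold change was 0.02, against -0.01 over all genes, and their median absolute log2 fold change was 0.11, against 0.09. The 2 groups overlapped in cpm for each of the 10, whereas 1.87% of all genes tested had groups that did not overlap. The 95% intervals limit what could have been missed: the widest bounds over the 10 factors were -0.58 for Hand2 and 0.55 for Tbx20 on the log2 scale. In bulk tissue, fewer cells of a type and less RNA per cell cannot be told apart.

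**Figure D1:**
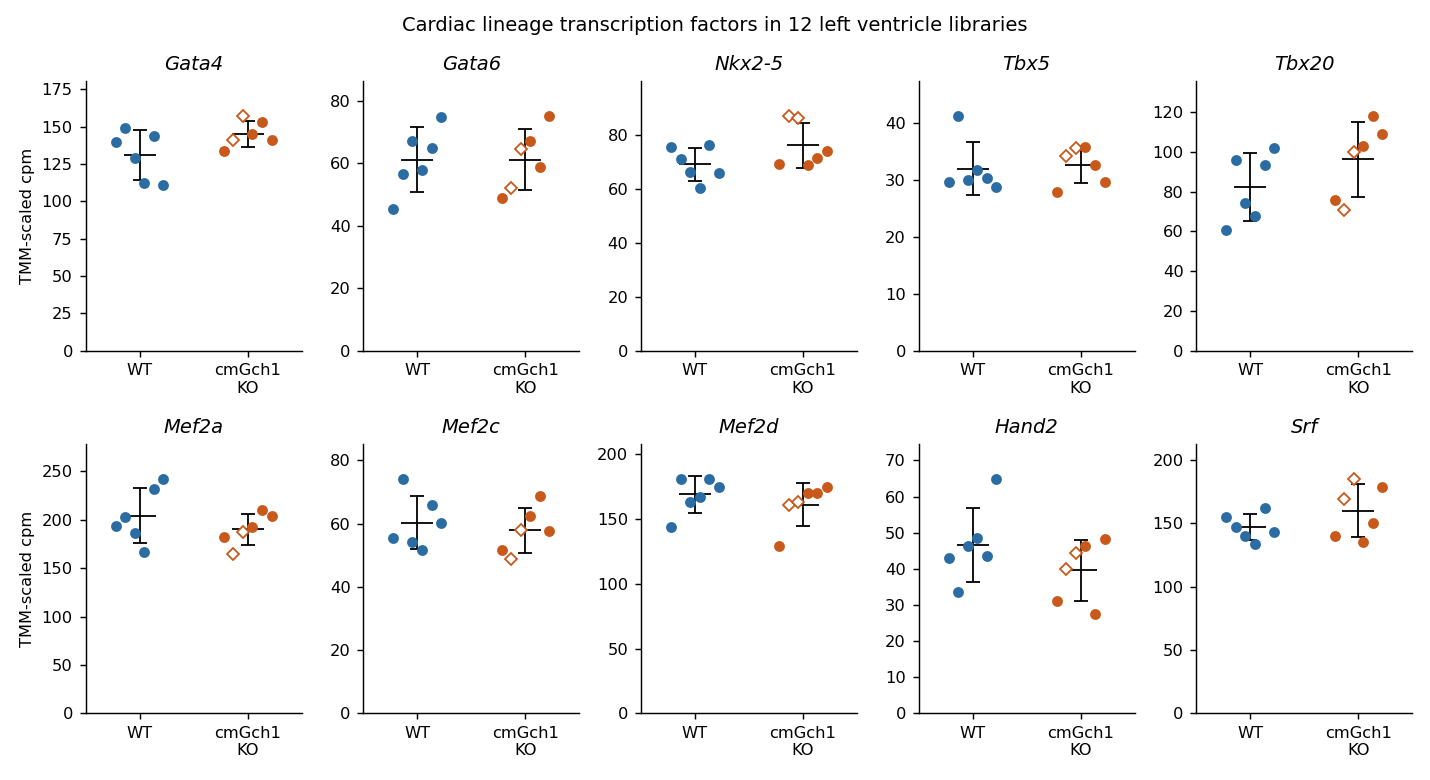
TMM-scaled cpm of the 10 transcription factors in each library, with the mean and SD of the WT (blue) and cmGch1 KO (orange) groups, n = 6 each. Each axis starts at 0, and open diamonds are cmGch1 KO replicates 2 and 3, which had the highest Nkx2-5 of the 12 libraries (86.8 and 86.3 cpm).

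Both GATA factors were readily detected. Gata4 (ENSMUSG00000021944, chr14:63198922-63271692, minus strand), a zinc finger factor required for heart formation and for hypertrophic growth, had 111, 134 and 149 cpm as the lowest, median and highest of 6 WT libraries, and 134, 143 and 157 cpm in cmGch1 KO. Each of the 6 cmGch1 KO libraries lay above the WT mean and 2 lay above every WT library, but the groups overlapped. Mean levels were 131 ± 16.5 cpm in WT and 145 ± 8.46 in cmGch1 KO (SD, n = 6 each). Gata4 had the smallest p of the factors, with a log2 fold change of 0.15 (95% interval -0.03 to 0.33, edgeR quasi-likelihood test, FDR 0.552). The unadjusted p of this test was 0.0959, and an exact permutation test on the 12 values, two-sided, gave p = 0.0974. Gata6 (ENSMUSG00000005836, chr18:11052064-11085635, plus strand), its close relative with overlapping functions in the heart, had 45.2, 61.2 and 74.9 cpm in WT and 49, 61.6 and 75 in cmGch1 KO. The group means of Gata6 were both 61.1 cpm, with SDs of 10.3 and 9.75, and the 95% interval of its log2 fold change ran from -0.27 to 0.27. Gata6 thus varied more among libraries of 1 genotype, with a within-group SD of 0.24 on the log2 scale, than Gata4, with 0.14. Gata6 is among the long factors whose mean followed a library-wide gene length trend, described below. The part of that trend in its spread was not tested.

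Nkx2-5 (ENSMUSG00000015579, chr17:26838664-26845009, minus strand), which marks cardiac progenitors and is kept on in adult cardiomyocytes, had 60.1, 68.4 and 76 cpm in WT and 68.6, 72.6 and 86.8 in cmGch1 KO. Only the cmGch1 KO replicates with high Xist, at 86.8 and 86.3 cpm, lay above every WT library. The log2 fold change of Nkx2-5 was 0.14 ± 0.08 (SE, edgeR FDR 0.589), and 0.03 (FDR 0.999) without these replicates. With the log2 difference between Xist and the Y-linked genes (sex-linked expression) as a covariate it was 0.04 (FDR 0.995). This covariate mainly sets the same replicates apart, so it is no separate check. No WT library carried the profile of these replicates, so within WT the relation of Nkx2-5 to it could not be examined.

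The T-box factors differed in how evenly they were expressed. Tbx5 (ENSMUSG00000018263, chr5:119832668-119885219, plus strand), which is needed for septation and the conduction system, had 28.8, 30.2 and 41.2 cpm in WT and 27.9, 33.5 and 35.8 in cmGch1 KO. Its highest value was in WT replicate 2, with the other 5 WT libraries at or below 31.8 cpm. The log2 fold change of Tbx5 was 0.03 (95% interval -0.18 to 0.24, edgeR FDR 0.96). Tbx20 (ENSMUSG00000031965, chr9:24718138-24774303, minus strand), which maintains adult cardiomyocyte function, had 60.8, 84.1 and 102 cpm in WT and 70.8, 102 and 118 in cmGch1 KO. Of the cmGch1 KO libraries, 3 lay above every WT library and the others lay within the WT range. Group means of Tbx20 were 82.4 ± 16.9 and 96.3 ± 18.9 cpm (SD, n = 6 each), and its log2 fold change was 0.23 (95% interval -0.10 to 0.55, edgeR FDR 0.656). Tbx20 was the 1 factor that passed the FDR threshold under any alternative, at the same log2 fold change of 0.23: with 1 surrogate variable in the fit its FDR was 0.0293, and with the gene length trend described below as a covariate, chosen after seeing the data, it was 0.0265. Both fits called near-equal numbers of genes (331 lower and 305 higher, and 331 lower and 308 higher), so they should not be counted as separate support.

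The MEF2 family had lower means in cmGch1 KO in each of its 3 members, by less than the spread between libraries. MEF2 proteins recruit class IIa histone deacetylases, which keep their targets silent until a stress signal exports them from the nucleus. Mef2a (ENSMUSG00000030557, chr7:67231163-67372858, minus strand) had 167, 198 and 242 cpm in WT and 164, 189 and 210 in cmGch1 KO, with a log2 fold change of -0.10 (95% interval -0.30 to 0.09, edgeR FDR 0.769). Mef2d (ENSMUSG00000001419, chr3:88142372-88172086, plus strand) had 144, 171 and 181 cpm in WT and 129, 167 and 175 in cmGch1 KO, with a log2 fold change of -0.06 (95% interval -0.24 to 0.11, edgeR FDR 0.864). Mef2c (ENSMUSG00000005583, chr13:83504034-83667080, plus strand), the member active in early heart tube development, had 51.7, 57.9 and 74.1 cpm in WT and 48.7, 57.8 and 68.7 in cmGch1 KO. Its log2 fold change was -0.06 (95% interval -0.28 to 0.16, edgeR FDR 0.908). Without cmGch1 KO replicates 2 and 3, log2 fold changes were -0.05 for Mef2a, -0.0071 for Mef2c and -0.07 for Mef2d (edgeR FDR 0.999 each). With scaling by library size alone, which moved the median log2 fold change of all genes to 0.07, those of Mef2c and Mef2d were 0.01 and 0.02, below that median.

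Hand2 (ENSMUSG00000038193, chr8:57320983-57324633, plus strand), a right ventricular and outflow tract factor in the embryo, was the most variable of the 10, with a coefficient of variation of 22.5% and a 2.35-fold range over the 12 libraries. It had 33.6, 45 and 64.9 cpm in WT and 27.6, 42.1 and 48.4 in cmGch1 KO. The highest value was in WT replicate 6, and 2 cmGch1 KO libraries lay below every WT library. The log2 fold change of Hand2 was -0.23 (95% interval -0.58 to 0.11, edgeR FDR 0.671), and -0.12 without WT replicate 6. Hand2os1, the long noncoding gene on the other strand beside it, shares 461 bp of exon with Hand2 and had 39.8 cpm in WT and 30.3 in cmGch1 KO, with a log2 fold change of -0.39 (edgeR FDR 0.263). The libraries keep strand, but the strand setting of the counting is not given in the sources used here, so reads of Hand2 and Hand2os1 may not be fully separated. Overlapping antisense exons were shorter or lowly expressed for the other factors that had any: 302 bp with Lysmd4, at 18.4 to 29 cpm, for Mef2a, 93 bp with 1010001N08Rik for Gata6, and 531 bp with 1700113A16Rik, at 0.445 cpm or less, for Mef2d.

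Srf (ENSMUSG00000015605, chr17:46548329-46556175, minus strand), which binds CArG boxes and drives actin and contractile genes, had 134, 145 and 162 cpm in WT and 135, 160 and 185 in cmGch1 KO. Its own promoter window held 2 matches to this box, whose binding was not measured. Replicates 2, 3 and 6 of cmGch1 KO, at 169, 185 and 179 cpm, lay above every WT library, and the other 3 lay among them. The log2 fold change of Srf was 0.12 (95% interval -0.07 to 0.31, edgeR FDR 0.69), and 0.04 (FDR 0.999) without replicates 2 and 3.

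**Figure D2:**
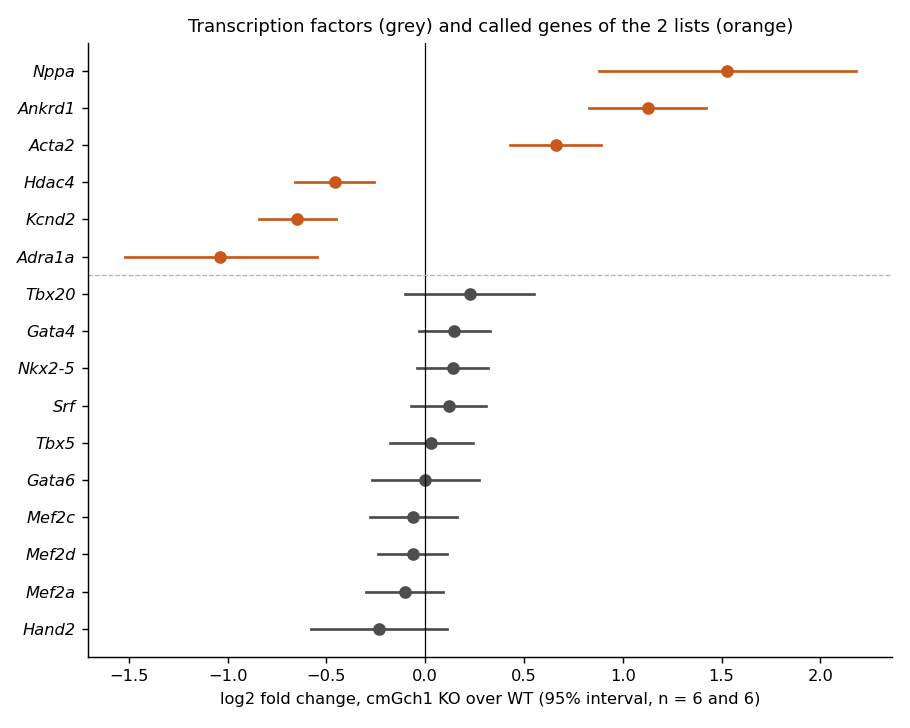
Log2 fold change of cmGch1 KO over WT with its 95% interval for the 10 transcription factors (grey) and for the 6 called genes of the partner and target lists (orange). The intervals of all 10 factors include 0, from Hand2 at -0.23 to Tbx20 at 0.23, while the called genes run from Adra1a at -1.04 to Nppa at 1.53.

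Levels of different factors were compared as cpm per kilobase of exon, averaged over all 12 libraries, using the union of annotated exons. Srf was highest (53 ± 5.9, SD, n = 12), followed by Nkx2-5 (42.2 ± 4.59) and Gata4 (35.3 ± 3.71). Mef2d (27.6 ± 2.53), Hand2 (18.3 ± 4.13), Mef2a (13.4 ± 1.58) and Gata6 (9.38 ± 1.47) were intermediate. Tbx20 (7.45 ± 1.55), Tbx5 (6.91 ± 0.819) and Mef2c (3.76 ± 0.485) were lowest. Neighbours in this order kept it within at least 11 of 12 libraries, with the exception of Tbx20, which was above Tbx5 in 7 of 12. Among all tested genes on this scale, Srf stood at percentile 93.2 and Mef2c at 40.6. Mef2c and Mef2a have the longest exon unions, of 15715 and 14681 bp, and parts of such unions that are not used in heart lower this measure.

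**Figure D3:**
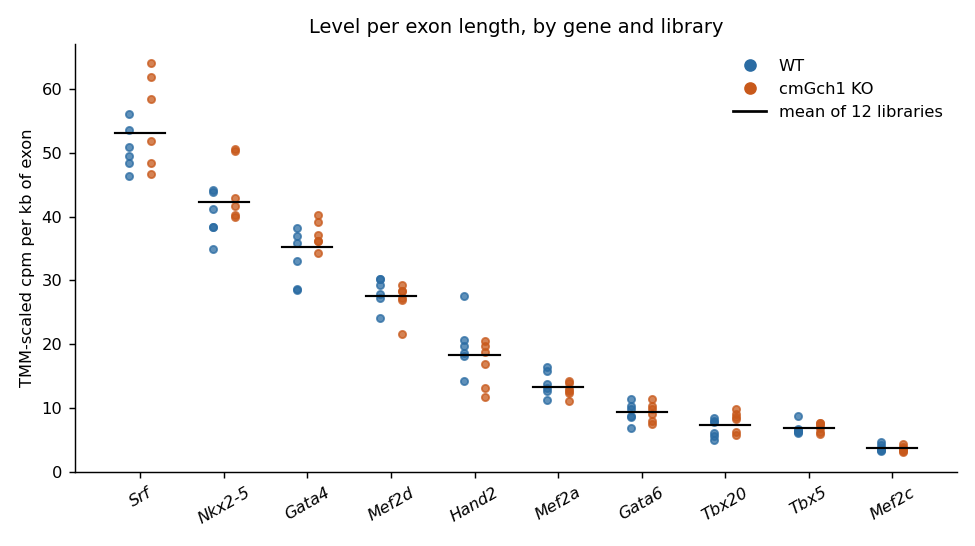
TMM-scaled cpm per kilobase of exon of the 10 transcription factors in each WT (blue) and cmGch1 KO (orange) library, with the mean of 12 libraries as a line. Srf, Nkx2-5 and Gata4 are highest, at means of 53, 42.2 and 35.3, and Tbx20 and Tbx5 lie within each other's spread.

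Within families, paralog shares were compared per library, because a share does not depend on scaling between libraries. Mef2d held 61.5 ± 2.5% of the MEF2 total per kilobase in WT and 61.8 ± 2.47% in cmGch1 KO (SD, n = 6 each), Mef2a 30.2 ± 2.48% and 29.7 ± 2.03%, and Mef2c 8.34 ± 0.737% and 8.43 ± 0.647%. Mef2d was thus the highest of the 3 per kilobase in both genotypes, whereas in cpm, without the division by exon length, Mef2a was higher (204 ± 28.2 against 169 ± 14 in WT and 190 ± 16.2 against 161 ± 16.7 in cmGch1 KO). Gata6 made up 22 ± 4.44% of the GATA pair in WT and 20.1 ± 2.43% in cmGch1 KO. Tbx20 made up 49.8 ± 5.37% of the T-box pair in WT and 53.1 ± 5.25% in cmGch1 KO. No share differed beyond the spread between libraries: exact permutation p-values, two-sided, ran from 0.301 for Tbx20 to 0.838 for Mef2c, and each was 0.838 after adjustment over the 5 shares.

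The factors were then compared with each other across the 12 libraries, on log2 cpm. Of 45 pairs, 32 had a Pearson r above 0, and r ranged from -0.61 for Gata4 with Hand2 to 0.86 for Nkx2-5 with Srf. Nkx2-5 and Srf were the 1 pair that passed the adjusted threshold (r = 0.86, permutation p = 3.00e-04, adjusted 0.0135 over 45 pairs, and Spearman's rho = 0.88, permutation p = 3.60e-04, adjusted 0.0162). Within genotypes, r was 0.97 in WT and 0.80 in cmGch1 KO (n = 6 each). Replicates 2 and 3 of cmGch1 KO were also the 2 libraries farthest from the median of Nkx2-5, and without them r was 0.77 and no pair passed. The Gata4 and Hand2 pair was not called (adjusted p = 0.171), and its r was -0.85 in WT and 0.04 in cmGch1 KO.

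**Figure D4:**
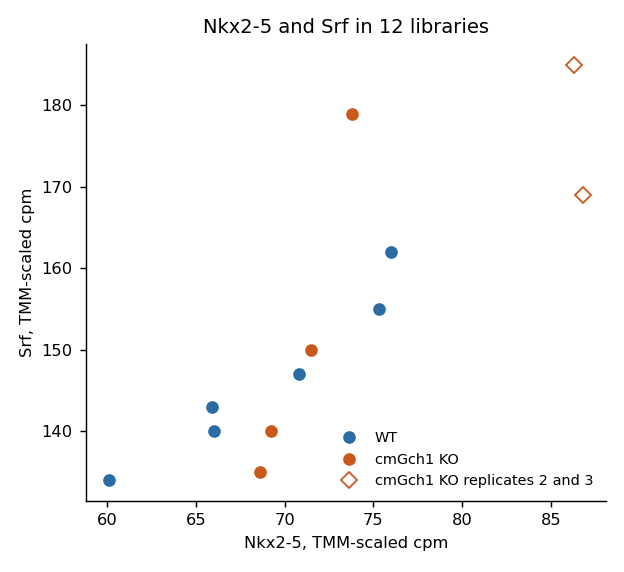
TMM-scaled cpm of Nkx2-5 and Srf in the 6 WT and 6 cmGch1 KO libraries, on axes that do not start at 0. Both genes rise together (r = 0.86 on log2 cpm), and cmGch1 KO replicates 2 and 3 (open diamonds) sit at 86.8 and 86.3 cpm of Nkx2-5 and 169 and 185 cpm of Srf.

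Covariation was also compared with exon length, a step added after seeing the data. The 5 factors with the longest exons, Mef2c, Mef2a, Tbx20, Gata6 and Mef2d, were positively correlated in all 10 of their pairs, with a median r of 0.62 (0.29 to 0.70). The median was 0.19 over the 10 pairs of the 5 shorter factors and 0.05 over the 25 mixed pairs. Libraries differed in how long genes stood against short ones over the whole transcriptome. The median deviation of genes with at least 7048 bp of exon, minus that of genes with at most 2860 bp (the longest and the shortest of 11195 genes, cut at the quartiles), spanned -0.35 to 0.27 over the WT libraries and -0.41 to 0.25 over the cmGch1 KO libraries on the log2 scale. No difference in this trend between genotypes was detected (exact permutation test, two-sided, n = 6 each, p = 0.981).

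The mean deviation of the 5 long factors, of which Mef2c, Mef2a and Tbx20 are themselves among those long genes, followed this library trend closely. It was lowest in WT replicate 1 (-0.25) and cmGch1 KO replicate 1 (-0.23), whose trends were -0.35 and -0.41, and highest in WT replicate 6 (0.19), whose trend was 0.27. Over the 12 libraries, Pearson's r was 0.97 and Spearman's rho 0.97 (permutation p = 1.00e-05, the smallest that the permutations can give, and 2.00e-05). Pearson's r was 0.99 in WT, 0.96 in cmGch1 KO, 0.96 without the 2 libraries farthest from the median and 0.99 without cmGch1 KO replicates 2 and 3. The trend comes from these same libraries, and long genes as a group define it. These permutation p-values therefore do not set the 5 factors apart from other long genes. With the trend regressed out of each gene, an alternative chosen after seeing the data, the median r of the 10 long pairs was -0.08 (-0.69 to 0.26). The mean of these factors already followed the trend at r = 0.97, so the step had to lower r by removing their shared part. It cannot show why they vary together. Nkx2-5 with Srf, both short, had an r of 0.87 after the same step.

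**Figure D5:**
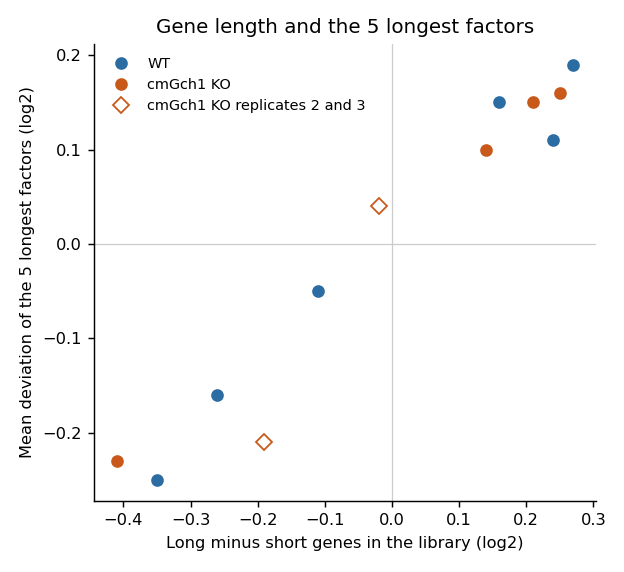
Mean log2 deviation of Mef2c, Mef2a, Tbx20, Gata6 and Mef2d from their 12-library means, against the median log2 deviation of long minus short genes in the same library. The points lie along 1 line (r = 0.97, n = 12), with WT and cmGch1 KO libraries, including replicates 2 and 3 (open diamonds), spread along it.

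Genes with the most similar profiles were sought for the factor with the smallest p and for the most variable factor, over the 11225 genes tested and 12 libraries. The highest Pearson r with Gata4 were those of Gm2415 (0.912), Pik3r3 (0.902) and Tcf3 (0.884), and those with Hand2 were Elf2 (0.9), Med26 (0.877) and Cebpb (0.867). These are the top values of many and are given as a description.

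Most partners and regulators of the factors were not called. Of 48 listed genes, 40 were tested, of which 1 rose and 1 fell at an FDR under 0.05 (5%, against 1.12% of all genes, with 0.677% higher and 0.445% lower). At an unadjusted p under 0.05 there were 3 of 40 (7.5%, against 11.5% of all genes), and the median log2 fold change of the list was -0.01. The list was chosen with earlier results of these data known, so these shares cannot show enrichment. Ankrd1, a cardiac ankyrin repeat protein of the sarcomere and nucleus that is induced by stretch, rose from 915, 1091 and 1579 cpm as the lowest, median and highest in WT to 2098, 2573 and 3128 in cmGch1 KO. Groups did not overlap, and the log2 fold change of Ankrd1 was 1.13 ± 0.14 (SE, edgeR FDR 9.80e-04). Hdac4, a class IIa deacetylase that binds and represses MEF2 proteins, fell from 20.9, 26.7 and 29.8 cpm to 17.3, 18.6 and 21.6. Its log2 fold change was -0.46 ± 0.09 (edgeR FDR 0.0291), 5 of 6 cmGch1 KO libraries lay below every WT library, and it was -0.41 (FDR 0.193) without cmGch1 KO replicates 2 and 3. Fhl2, a LIM domain cofactor and the highest of the list per kilobase with Ankrd1, had a log2 fold change of -0.06 (95% interval -0.34 to 0.21, edgeR FDR 0.929). The listed genes that were not tested were below the minimum cpm.

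Genes listed as targets of these factors were called in both directions, and their regulation by the factors was not tested here. Of 32 genes tested, 2 rose and 2 fell at an FDR under 0.05 (12.5%, against 1.12% of all genes). At an unadjusted p under 0.05 there were 9 of 32 (28.1%, against 11.5% of all genes). Of these, 7 were higher and 2 lower (7.01% and 4.51% of all genes). The median log2 fold change of the list was -0.02. This list was chosen with earlier results of these data known, so its shares cannot show enrichment. Nppa, the atrial natriuretic peptide gene with T-box, Nkx2-5 and GATA matches in the window printed above, had 67, 148 and 264 cpm in WT and 202, 434 and 681 in cmGch1 KO. All but 1 of the cmGch1 KO libraries lay above every WT library, and the log2 fold change of Nppa was 1.53 ± 0.30 (edgeR FDR 0.024). The lowest and highest WT values of Nppa were in replicates 6 and 4, with the lowest and highest atrial marker sums (7.66 and 285 cpm). In cmGch1 KO the highest Nppa was in replicate 2, with an atrial marker sum of 64.7 cpm. The lowest was in replicate 6 (202 cpm), which also had the lowest atrial marker sum of that group (45.3 cpm). The part of atrial tissue in Nppa was not tested. Acta2, the smooth muscle actin gene regulated by Srf, rose from 126 ± 14.3 to 200 ± 32 cpm (SD, n = 6 each) without overlap, with a log2 fold change of 0.66 ± 0.11 (edgeR FDR 0.00672). Acta2 is also a smooth muscle marker. Of 7 smooth muscle and pericyte markers, 3 were higher and 4 lower (median log2 fold change -0.06), and Acta2 alone was called. Kcnd2, which encodes a channel of the transient outward potassium current, fell from 25.3 ± 3.28 to 16.2 ± 1.13 cpm without overlap, with a log2 fold change of -0.65 ± 0.09 (edgeR FDR 0.00241). Adra1a, the α1A-adrenergic receptor gene, fell from 22.1 ± 3.7 to 10.7 ± 3.87 cpm without overlap, with a log2 fold change of -1.04 ± 0.23 (edgeR FDR 0.0412).

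The calls of Ankrd1, Acta2 and Kcnd2 held when any 1 library was left out, those of Nppa, Hdac4 and Adra1a in 6, 5 and 5 of 12 such fits. Nppa was not called without WT replicate 2, 3 or 5 or without cmGch1 KO replicate 2, 3 or 4 (edgeR FDR 0.0102 to 0.0703 over the 12 fits). Hdac4 was not called without WT replicate 2, 3, 5 or 6 or without cmGch1 KO replicate 2, 3 or 5 (FDR 0.0121 to 0.0865). Adra1a was not called without WT replicate 2, 3, 4, 5 or 6 or without cmGch1 KO replicate 3 or 5 (FDR 0.0198 to 0.109). Log2 fold changes stayed between 1.36 and 1.76 for Nppa, -0.52 and -0.42 for Hdac4 and -1.16 and -0.88 for Adra1a in these fits. Without cmGch1 KO replicates 2 and 3, Nppa had a log2 fold change of 1.30 (edgeR FDR 0.176), Acta2 of 0.51 (FDR 0.0506) and Adra1a of -0.79 (FDR 0.0555). With sex-linked expression as a covariate, Nppa, Hdac4 and Adra1a were not called (edgeR FDR 0.122, 0.152 and 0.108), at log2 fold changes of 1.31, -0.40 and -0.79, while Ankrd1, Acta2 and Kcnd2 were called. This covariate mainly sets cmGch1 KO replicates 2 and 3 apart from the rest, so it is no separate check from leaving them out. The most abundant targets per kilobase, the sarcomere genes Actc1 and Myl2, were not called, with log2 fold changes of 0.10 (FDR 0.724) and -0.22 (FDR 0.685).

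Cell type markers moved in part with genotype. Summed cardiomyocyte markers were 56095 to 60019 cpm in WT and 50848 to 56394 in cmGch1 KO (exact permutation test, two-sided, n = 6 each, p = 0.00433), with 6 of 7 lower and none called by edgeR. With library size alone, an alternative chosen after seeing the data, these ranges were 55657 to 57574 and 49297 to 57635 cpm (exact permutation p = 0.145). Summed macrophage markers were 132 to 169 cpm in WT and 166 to 209 in cmGch1 KO (exact permutation p = 0.00433), with 6 of 6 higher, each at an unadjusted p under 0.05 and none called by edgeR, and 130 to 161 and 170 to 218 cpm with library size alone (exact permutation p = 0.00216). Summed fibroblast markers, 7 of 7 higher, were 800 to 1068 and 903 to 1115 cpm (exact permutation p = 0.0736, and 0.0411 with library size alone). Endothelial markers, 3 of 6 higher, were 683 to 857 and 735 to 870 cpm, and smooth muscle and pericyte markers, 3 of 7 higher, 904 to 1021 and 923 to 1071 cpm. In cmGch1 KO replicates 2 and 3, cardiomyocyte sums were 51750 and 52770 cpm and macrophage sums 201 and 191 cpm. Replicate 1, with the male pattern, had the lowest cardiomyocyte sum (50848 cpm) and the highest macrophage sum (209 cpm). Marker sums were not tested without replicates 2 and 3. No listed marker was at 0 in all libraries. The part of these shifts in the values of Gata4, Tbx20, Hand2 and the other factors, which are also expressed outside cardiomyocytes, was not tested.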

How the data were processed

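The authors extracted total RNA from left ventricle, made dUTP-stranded libraries and, per the labels, aligned reads to GRCm38 with HISAT2 and used SAMtools. The authors deposited raw counts per Ensembl gene, used here, and normalized log2 values, used for 1 alternative (limma 3.58.1). Symbols, positions and exon lengths came from GENCODE M21, in which 26582 of 26921 identifiers (98.7%) were found. Counts were fitted with edgeR 4.0.16 in R 4.3.3: TMM scaling, a minimum cpm of 3 exceeded in 6 or more libraries, a quasi-likelihood test on genotype without covariates, Benjamini-Hochberg FDR threshold 0.05. Cpm were relative to the counts of tested genes. Log2 cpm used a prior count of 2, and correlations 100000 permutations. The fit was tested on simulated data. Alternatives covered the scaling, filter, test (DESeq2 1.42.0), replicate block, sex-linked expression, 1 surrogate variable (sva 3.50.0), the length trend and single libraries left out. No pair of the 30 within genotypes agreed within sampling noise (chi-square per degree of freedom 12.5 to 78.9). A count of 0 allows 3 counts, at most 0.14 cpm (counting error only). Labels do not tie libraries to numbered animals, the study defining n as single animals. The members and lists were chosen with earlier results of these data known. Genes named beyond the members were called or most abundant in a list, or most similar in profile. Not every gene that this allows is named.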

Additional observations from a re-analysis of the deposited data

Results flagged for a closer look

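In 50 groups of 6 values examined for a single library far from the others, 2 stood out, and chance gives about 1 in 20 such groups. Tbx5 was at 41.2 cpm in WT replicate 2, with the next WT library at 31.8, and without that library the log2 fold change of Tbx5 was 0.12 in place of 0.03. Mef2d was at 129 cpm in cmGch1 KO replicate 1, with the next at 161, and without it the log2 fold change of Mef2d was -0.00714 in place of -0.06. This library also had the lowest ratio of long to short genes, at -0.41 on the log2 scale. Neither Tbx5 nor Mef2d was called by edgeR with or without these libraries.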

How the results depend on the processing

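Over 25 alternatives, 12 of them leaving out 1 library each, 232 of 250 log2 fold changes of the factors kept their sign and their side of the FDR threshold and 16 changed sign, all of Gata6, Tbx5, Mef2c or Mef2d. Tbx20 was called in the other 2, at 0.23 with 1 surrogate variable and at 0.23 with the length trend as a covariate, so that 1 factor was called in each. With the surrogate variable, 331 genes were lower and 305 higher, and 8 targets were called. With the length trend, chosen after seeing the data, 331 were lower and 308 higher, 8 targets were called and Gata6 was at -0.00339. Scaling by library size alone gave 36 lower and 116 higher genes (50 and 76 with TMM), 1 partner was called, the target median was 0.06, Mef2c and Mef2d were at 0.01 and 0.02, and 2 pairs of factors were correlated. With that scaling, Gata4 and Nkx2-5 had an unadjusted p under 0.05 by edgeR, at FDRs of 0.261 and 0.32. Gata6 was at -0.01 without a filter, -0.00437 with filterByExpr and -0.00595 in the deposited log2 values. DESeq2 1.42.0 called 155 genes lower, 218 higher and 7 targets by its Wald test, and edgeR's likelihood ratio test 80 lower and 145 higher. With sex-linked expression as a covariate, 24 genes were lower and 38 higher, 1 partner and 2 targets were called, and Tbx5 was at -0.02. Without cmGch1 KO replicates 2 and 3, 18 genes were lower and 16 higher, 1 partner and 1 target were called, Tbx5 was at -0.02, the share differences of Mef2a and Mef2d were 0.286 and -0.6 points and 0 pairs were correlated. The cause of these moves was not tested.

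The labels name no shared source for same-numbered libraries, and r of their deviations was -0.128 to 0.676, above 0.1 for replicates 1, 5 and 6, which correlated best with their own number, and below 0 for the other 3. The fit with the replicate number as a block called 76 genes lower, 112 higher and 0 factors, with the smallest FDR of a factor, 0.331, for Hand2.

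With single libraries left out, genes called lower ranged from 28 (without WT replicate 3) to 96 (without cmGch1 KO replicate 1), higher from 44 to 111 for the same libraries, partners from 1 to 2 and targets from 2 to 5. No factor was called, and Gata4 had an unadjusted p under 0.05 by edgeR without WT replicate 2 (FDR 0.398). Log2 fold changes ranged from -0.07 to 0.07 for Gata6, -6.83e-04 to 0.12 for Tbx5 and -0.12 to 0.00731 for Mef2c. Share differences ranged from -1.19 to 0.12 points for Mef2a, -0.0783 to 0.352 for Mef2c and -0.29 to 1.2 for Mef2d.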
